A study of Rattus norvegicus with 20 samples.

Results

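The cilium genes described here are the 78 genes whose annotated rat symbol starts with Dnah, Dnai, Dnal, Dnaaf, Tekt, Cfap, Rsph, Spag, or with Drc, Ift or Bbs followed by a digit. They are 78 of 14217 genes named on the array. Where several probe sets measured a gene, the one with the greatest average of log2(signal + 16) across the 20 arrays represents it, and signal is the deposited intensity. By symbol, 54 belong to classes tied to ciliary motility: 8 axonemal dynein chains, 6 dynein assembly factors, 7 tektins, 8 radial spoke and nexin link genes, 19 Cfap genes and 6 Spag genes. The other 24 belong to transport classes that sensory cilia also use, namely 17 intraflagellar transport genes and 7 Bbs genes. The label fits these classes with limits: the Spag symbol is shared by proteins of different function, several of which are not axonemal, and the Cfap genes include proteins also found in sensory cilia.

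The arrays measured total RNA of nasal epithelium of untreated, genetically unmodified adult Sprague-Dawley rats without disease, and each array is 1 sample. The groups were male olfactory (6 arrays), male respiratory (6), female respiratory (6) and female olfactory (2), from rats aged 11, 13 or 14 weeks in both sexes. By the animal numbers in the labels they came from 13 rats, 7 of which gave both tissues. Epithelium was collected by hand from the septum and turbinates, so each sample holds several cell types in proportions that were not measured, and fewer cells of a type and less RNA per cell cannot be told apart.

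A motile cilium is driven by rows of axonemal dyneins on its microtubule doublets, steered by radial spokes and the nexin link, and stiffened by tektins and other proteins inside the doublet wall. Multiciliated cells of respiratory epithelium carry such cilia, which beat to move mucus. Olfactory sensory neurons carry cilia of another kind, which hold odorant receptors, lack dynein arms in rodents and do not beat. Both kinds are built and supplied by intraflagellar transport, and the BBSome, a coat of Bbs proteins, carries membrane proteins in and out of cilia, so transport genes are common to both. The comparison of the dynein and other motility genes with the transport genes therefore asks how the parts of each kind of cilium divide between the tissues.

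Regulatory factors of the RFX family bind X-box motifs in promoters of ciliary genes, and Foxj1, a fork-head factor, acts with them in motile cells. Promoter windows from 250 bases before to 50 bases after the start were listed by RefSeq (build GRCr8) for 66 of the 78 genes, and were searched on both strands for the RFX half-site GTTGCC. It lay in 33.3% of the 66 windows, against 12.2% of 27457 genes with a window and 12.4% of the 11700 of these named on the array. The share was 32.6% in motility genes and 35% in transport genes. A full X-box, taken as GTTNCC followed after 0 to 3 bases by its own reverse complement (a match that can hold the half-site), lay in 4.55% of the 66 windows against 0.841% of all, in Cfap144, Cfap20dc and Cfap298. The fork-head core GTAAACA lay in 4.55% of the 66, which is 3 genes, against 3.76% of all and 2.46% of those named on the array. These are matches of letters, not sites, and a window without them says nothing of the factor. The stretches below come from genes that differed between the tissues in males, 3 lower and 3 higher in olfactory epithelium, and show that the half-site lay upstream of genes of both directions. Each is written 5′ to 3′ on the strand of its gene, and capitals mark the half-site on either strand, or for Cfap144 the whole X-box.
Dnah2, lower, chr10:54766049-54766088, minus strand: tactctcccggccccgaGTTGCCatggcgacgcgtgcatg
Cfap161, lower, chr1:147177856-147177895, minus strand: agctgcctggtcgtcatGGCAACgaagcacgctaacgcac
Cfap144, lower, chr10:44019282-44019322, minus strand: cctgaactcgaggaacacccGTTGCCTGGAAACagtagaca
Tekt2, higher, chr5:143907731-143907770, minus strand: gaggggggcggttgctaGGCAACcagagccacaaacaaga
Cfap20, higher, chr19:9614810-9614849, plus strand: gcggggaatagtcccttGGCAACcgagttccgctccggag
Bbs5, higher, chr3:74818584-74818623, plus strand: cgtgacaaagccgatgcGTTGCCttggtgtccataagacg
The half-site lay in 5 of the 16 windows of motility genes lower in male olfactory epithelium, in 3 of the 6 of those higher there, and in 7 of the 24 not called.

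Before the results, several facts of the arrays bear on them. A probe set counted as above background on an array where it passed the level that 95% of 27 control probe sets for bacterial sequences stayed under. Of the 78 genes 64 were above it on all 20 arrays and 9 on 6 to 19. The remaining 5 (Dnah17, Tekt5, Tekt5l1, Tektl1 and Rsph6a) were above it on fewer than 6. RNA integrity numbers moved with tissue, at 8.2 to 8.8 in male olfactory samples (5 with a number) and 9.1 to 9.3 in male respiratory samples (4 with a number). On the second principal component, which holds 15.8% of the variance, male respiratory sample 7 and female respiratory sample 8 stood apart from the other respiratory samples, at -97.5 and -113.3 against -5.4 to 32.6, and are meant below by the samples that stand apart. Male olfactory sample 10, at -68.1, was the lowest of the olfactory samples, the others of which ran from -30.8 to 84.4. Labelled tissue was checked on markers. Omp, the olfactory marker protein, had log2(signal + 16) of 14.38 to 14.72 in male olfactory against 9.70 to 12.39 in male respiratory arrays. The mean over 8 olfactory neuron markers was 11.53 to 12.30 against 8.09 to 9.84, and 7 of the 8 were called higher in male olfactory epithelium, while respiratory samples still held olfactory neuron signal. In female respiratory arrays this mean ran from 8.43 to 10.91. Of 8 multiciliated cell markers 4 had a probe set of their own, and 1 of these, Ak7, was lower in male olfactory epithelium. Their mean was 9.18 to 10.19 there against 9.97 to 10.78 in male respiratory arrays, ranges that overlap. Other cell types moved with tissue too: of 6 sustentacular cell markers 4 were higher in male olfactory epithelium and 2 lower, while 4 of 5 basal cell markers and 3 of 8 goblet and secretory cell markers were lower. The basal cell marker mean was 8.59 to 9.91 in male olfactory against 10.42 to 11.67 in male respiratory arrays. The parts of RNA integrity and of these cell types in the results below were not tested beyond the values given.
In males, 18 of the 54 motility genes (33.3%) were lower in olfactory than in respiratory epithelium and 7 (13%) were higher. Of the 24 transport genes 1 (4.17%) was lower and 4 (16.7%) were higher. A gene counts as called where limma's two-sided p, adjusted by Benjamini-Hochberg over 31042 probe sets, is under 0.05. In this contrast 13.6% of all probe sets were called lower and 11.6% higher, and of the 14217 named genes, each by its brightest probe set, 17.8% and 14%. Among motility genes the lower calls were thus more frequent than in the background and the higher calls were near it, while among transport genes the lower calls were fewer and the higher calls near it. The median difference, olfactory minus respiratory on the log2(signal + 16) scale, was -0.31 over the motility genes and 0.16 over the transport genes, beside -0.05 over all named genes. The transport median was 0.07 without male olfactory sample 4 and 0.09 without male respiratory sample 7. The motility calls were not spread evenly over the classes, as the plot of all 78 differences shows.

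**Figure D1:**
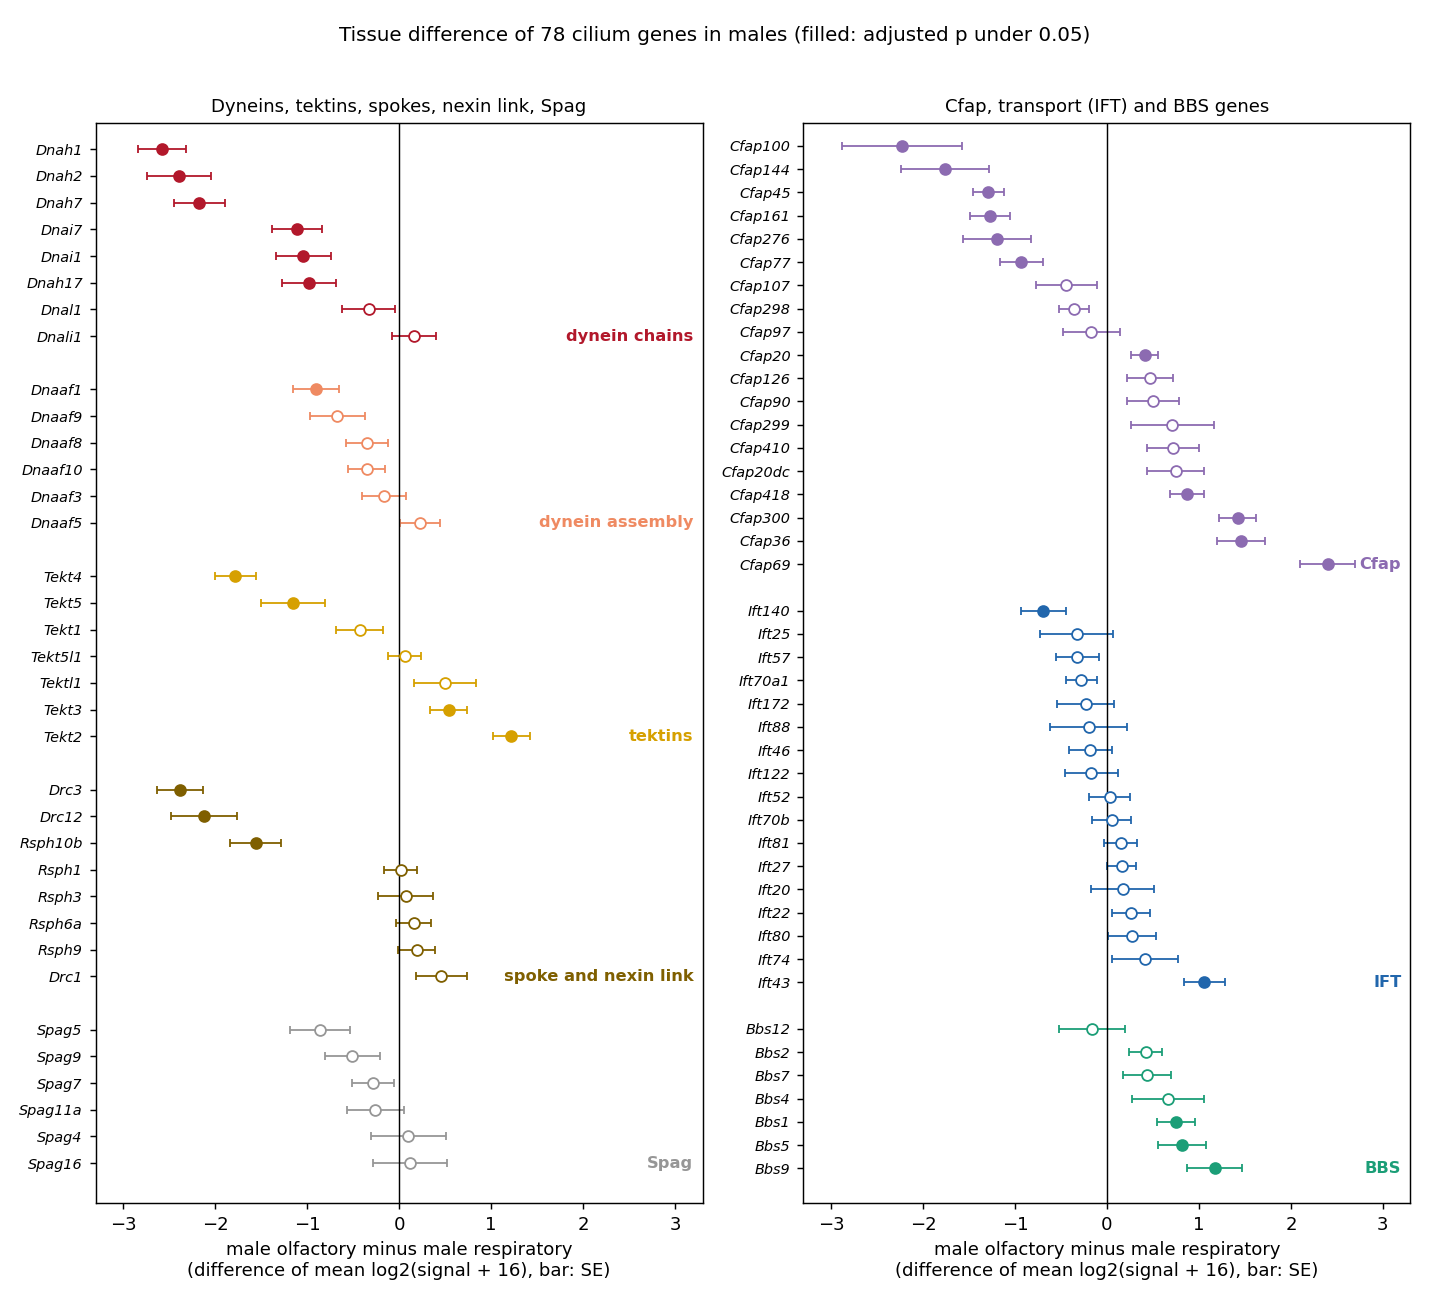
Difference of mean log2(signal + 16), male olfactory minus male respiratory (6 and 6 arrays), for each of the 78 genes by class, with bars for limma's standard error and filled points for an adjusted p under 0.05. Of the 8 dynein chains 6 are filled to the left of 0, down to -2.58 for Dnah1, whereas the Cfap class runs from -2.23 to 2.40 and the 3 filled Bbs genes lie to the right.

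When RNA integrity was added to the model, over the arrays that have a number for it, 6 motility genes were called lower and 3 higher, and no transport gene was called. Calls became fewer over all probe sets too, at 3.42% lower and 4.14% higher, against 13% and 10.2% on the same arrays without the covariate. Of the 30 genes called in males 21 were not called in that fit, against 6 not called on the same arrays without the covariate. The differences of 14 of the 30 were at least as large as in the model without integrity, and the median standard error over the 30 was 0.44, against 0.26 there and 0.28 on the same arrays without the covariate. With integrity in the model the median difference was -1.03 over the dynein chains and 0.62 over the Bbs genes, but -0.16 over all motility genes. On the same arrays without the covariate these medians were -1.28, 0.39 and -0.28. With integrity in the model Bbs1, Bbs5 and Bbs9 were at 1.14, 0.44 and 1.58, none of them called. The dynein chain median rests in part on Dnah17, near background, at -1.38 against -0.98 on all arrays. Dnah1, Dnah2, Dnah7, Dnai1 and Dnai7 were at -1.81, -1.53, -1.83, -0.69 and -0.69, each smaller in size than on all arrays. Of these chains only Dnah1 and Dnah7 were still called, and Dnah2, Dnai1 and Dnai7 had limma adjusted p of 0.111, 0.484 and 0.38. None of the 30 changed direction in any alternative fit. The 8 that were called in every alternative are Dnah1, Dnah7, Tekt2, Tekt4, Drc3, Cfap161, Cfap418 and Cfap69. Without both samples that stand apart the counts were 21 lower and 9 higher for motility genes and 1 lower and 4 higher for transport genes, while 18.2% of all probe sets were lower and 13.8% higher. Without male olfactory sample 10 they were 18 lower and 8 higher for motility genes and 0 lower and 5 higher for transport genes, beside 12.6% and 11.5% of all probe sets. With each rat as a fixed block, in the 5 males that gave both tissues, they were 21 lower and 7 higher for motility genes and 2 lower and 6 higher for transport genes, beside 12.6% and 11.5% of all probe sets. The 7 higher motility genes under the block leave out Tekt3 and Cfap20 and add Cfap20dc and Cfap410. Of the 18 lower motility calls 2, Dnah17 and Tekt5, came from probe sets near background.

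The axonemal dynein chains were the class most often lower in olfactory epithelium. Of its 8 members 6 (75%) were called lower and none higher, with a median difference of -1.07. Of all named genes 17.8% were lower. The largest differences lay in heavy chains, the motor subunits that hydrolyse ATP and slide neighbouring doublets. Dnah1, an inner arm heavy chain, had log2(signal + 16) of 7.17 at the lowest, 8.04 at the median and 8.86 at the highest on the 6 male olfactory arrays, against 10.17, 10.63 and 10.92 on the 6 male respiratory arrays. The female values were 8.73 and 9.10 in olfactory and 9.92, 10.73 and 11.42 (lowest, median, highest) in respiratory arrays. No olfactory array of either sex reached the lowest respiratory array. In males Dnah1 was 5.97-fold lower in olfactory epithelium, a difference of -2.58 (SE 0.26, adjusted p = 1.36e-07).

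Dnah2, also an inner arm heavy chain, ran 4.86, 5.52 and 6.58 (lowest, median, highest) in male olfactory against 7.28, 7.95 and 8.76 in male respiratory arrays. It was above background on only 3 of the 6 male olfactory arrays, so its difference of -2.39 (SE 0.35, adjusted p = 1.43e-05) rests on an olfactory level near the limit of detection. Dnah7, likewise of the inner arms, ran 5.71, 7.34 and 7.53 against 8.77, 9.32 and 9.94, and was above background on 5 of 6 male olfactory arrays. Its difference was -2.17 (SE 0.28, adjusted p = 3.15e-06). For Dnah1, Dnah2 and Dnah7 the olfactory and respiratory ranges did not overlap within or across the sexes, and the olfactory array was lower in 7 of 7 rats that gave both tissues.

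The intermediate chains, which help to anchor dynein arms on the doublet, differed less. Dnai7, listed with the axonemal intermediate chains, ran 8.28, 8.74 and 9.34 in male olfactory and 8.81, 10.10 and 10.29 in male respiratory arrays, a difference of -1.11 (SE 0.27, adjusted p = 0.00326). Dnai1, an intermediate chain of the outer arms, ran 7.80, 8.26 and 9.04 against 8.24, 9.64 and 9.87, a difference of -1.04 (SE 0.30, adjusted p = 0.013). In both genes male respiratory sample 7 was the lowest of its group, at 8.81 and 8.24, and for Dnai7 it was the only male respiratory array within the male olfactory range. In both the olfactory array was the lower one in 7 of 7 rats with both tissues. The light chains were not called: Dnal1 of the outer arms had a difference of -0.33 (SE 0.29) and Dnali1 of the inner arms 0.16 (SE 0.24). The sixth call, Dnah17, a heavy chain best known from sperm, was above background on no male olfactory array and on 1 male respiratory array, so no fold is given for it.

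Dynein arms are put together in the cytoplasm by assembly factors before they enter the cilium. Of 6 such genes only Dnaaf1 was called in males (16.7%, beside 17.8% of all named genes lower). It ran 8.34, 9.35 and 9.48 in olfactory and 9.30, 9.99 and 10.76 in respiratory arrays, with overlap, and differed by -0.90 (SE 0.25, adjusted p = 0.00933). The remaining 5 (Dnaaf3, Dnaaf5, Dnaaf8, Dnaaf9 and Dnaaf10) had differences from -0.67 to 0.23. Dnaaf9, at -0.67, was called lower without both samples that stand apart, with a difference of -0.81 (adjusted p = 0.0384). The class median of -0.35 lay nearer to 0 than that of the dynein chains.

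Tektins, filament proteins of the doublet wall, went both ways, and 2 of 7 (28.6%) were called in each direction. Of all named genes 17.8% were lower and 14% higher. Tekt4 ran 7.94, 8.65 and 9.09 in male olfactory against 9.81, 10.29 and 10.87 in male respiratory arrays, with no overlap, and was lower by 3.43-fold, a difference of -1.78 (SE 0.22, adjusted p = 2.34e-06). Tekt2 lay on the other side, at 10.27, 11.09 and 11.17 in olfactory against 9.27, 9.77 and 10.11 in respiratory arrays. It was higher in olfactory epithelium by 2.33-fold, a difference of 1.22 (SE 0.20, adjusted p = 4.9e-05), with no overlap in either sex and in 7 of 7 rats with both tissues. Tekt2 and Tekt4, proteins of the same family, thus differed between the tissues in opposite directions.

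Tekt3 was higher in male olfactory epithelium by 0.54 (SE 0.20, adjusted p = 0.0477), and this call ended when any of 10 of the 12 male arrays was left out (all but olfactory 10 and respiratory 7), with an adjusted p of up to 0.126. With each rat as a fixed block it was not called either (adjusted p = 0.164). Tekt5 was called lower, but was above background on no male olfactory array and on 1 male respiratory array, and its call ended without male respiratory sample 8 (adjusted p = 0.0589). Tekt1 had a difference of -0.43 (SE 0.26) and was not called with all arrays, while without both samples that stand apart it was lower, with a difference of -0.65 (adjusted p = 0.0225), as with each rat as a fixed block (-0.52, adjusted p = 0.0333). Tekt5l1 and Tektl1 were at or near background in males.

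Among the radial spoke and nexin link genes 3 of 8 were called, all lower in olfactory epithelium (37.5%, beside 17.8% of all named genes). Drc3, a subunit of the nexin-dynein regulatory complex that links neighbouring doublets, ran 7.73, 8.49 and 9.12 in male olfactory and 10.08, 11.07 and 11.30 in male respiratory arrays. The female values were 8.26 and 9.10 in olfactory and 10.23, 10.71 and 11.29 in respiratory arrays, so no olfactory array overlapped a respiratory one. The male difference was -2.38 (SE 0.25, adjusted p = 2.57e-07), a 5.22-fold lower signal. Drc12, named for the same complex, ran 8.24, 9.21 and 10.33 against 9.95, 11.78 and 11.93, a difference of -2.12 (SE 0.36, adjusted p = 0.000102), and overlapped only through male respiratory sample 7 at 9.95. Rsph10b, a radial spoke protein, ran 6.81, 7.46 and 7.87 against 7.54, 9.28 and 9.58, a difference of -1.56 (SE 0.28, adjusted p = 0.000212), with the same sample at 7.54. A second, dimmer Rsph10b probe set differed by 0.99 (adjusted p = 0.0536), the opposite sign, and the mean of both was not called.

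The remaining 5 genes of this class had differences between 0.02 and 0.46. Rsph1, a spoke head protein, ran 9.75, 10.31 and 10.46 in male olfactory and 9.72, 10.21 and 10.51 in male respiratory arrays, and its difference was 0.02 (SE 0.18). Rsph9, also of the spoke head, had 0.19 (SE 0.20) and Drc1, a core nexin link subunit, 0.46 (SE 0.28). Drc1 and Drc3, named for 1 complex, thus had differences of opposite sign, of which only that of Drc3 was called.

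**Figure D2:**
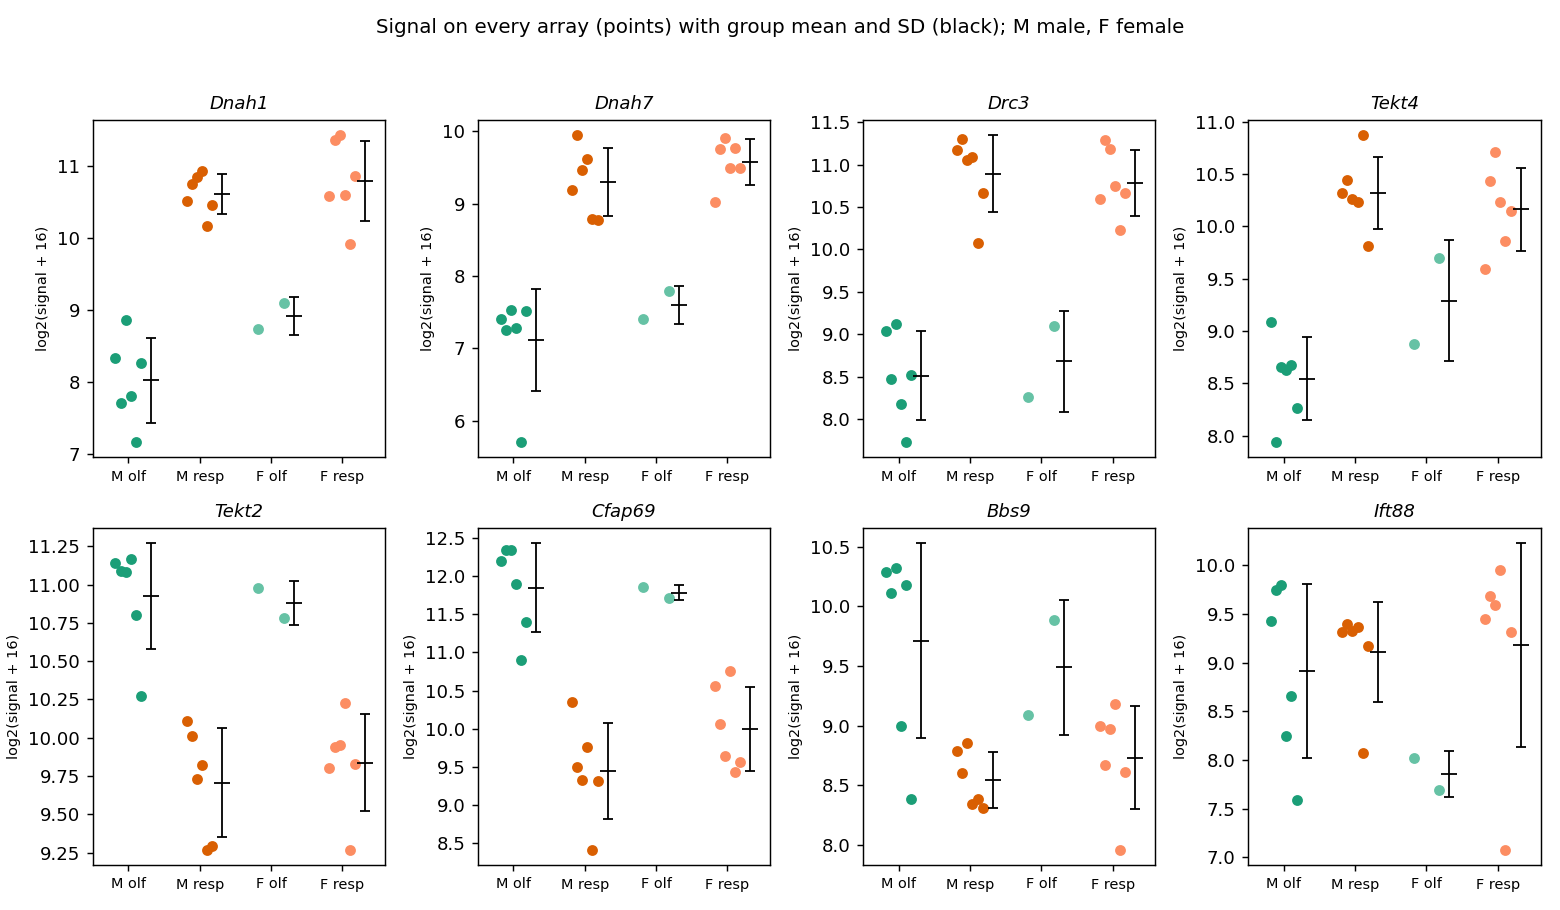
log2(signal + 16) of 8 genes on every array, in male and female olfactory (6 and 2 arrays) and respiratory (6 and 6) epithelium, with the group mean and SD in black. Dnah1, Dnah7 and Drc3 separate the tissues downward and Tekt2 and Cfap69 upward in both sexes, Tekt4 separates them in males while 1 female olfactory array at 9.70 passes the lowest female respiratory array at 9.59, and Ift88 overlaps between the tissues in both sexes.

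The 19 Cfap genes, named for cilia and flagella association and of mixed function, split most widely, with 6 lower (31.6%) and 5 higher (26.3%) in male olfactory epithelium. Of all named genes 17.8% were lower and 14% higher. The lower side held proteins of the motile axoneme, but the higher side, described below, held the doublet protein Cfap20 too. Cfap45, which lies inside the doublet, ran 8.08, 8.42 and 8.61 in olfactory against 9.29, 9.76 and 9.89 in respiratory arrays, a difference of -1.29 (SE 0.17, adjusted p = 4.9e-06) with no overlap. Cfap161, also an inner doublet protein, ran 8.87, 9.66 and 9.90 against 10.15, 10.80 and 11.06, a difference of -1.27 (SE 0.22, adjusted p = 0.000142), again with no overlap. Cfap100, which in algae helps to regulate inner arm dyneins, ran 5.48, 6.43 and 7.32 against 4.71, 9.18 and 9.86, a difference of -2.23 (SE 0.65, adjusted p = 0.0139). Male respiratory sample 7, at 4.71, was not above background and lay far from the other 5, which were at 9.00 or more. Without both samples that stand apart the difference was -3.0 (adjusted p = 4.73e-07). Cfap144 ran 9.00, 10.50 and 12.18 against 11.31, 12.08 and 13.66, a difference of -1.76 (SE 0.48, adjusted p = 0.00767) with overlap, and its second probe set gave -2.17 (adjusted p = 0.00136). Cfap276 and Cfap77, further inner doublet proteins, differed by -1.19 and -0.93, and the call of Cfap276 ended under quantile normalization.

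On the higher side, Cfap69 ran 10.90, 12.05 and 12.34 in male olfactory against 8.42, 9.41 and 10.35 in male respiratory arrays. The female values were 11.71 and 11.85 against 9.43, 9.85 and 10.75, and no respiratory array reached an olfactory array in either sex. Cfap69, which is needed in sperm flagella and is also known from olfactory cilia, where it shapes the time course of the odour response, was thus 5.26-fold higher, a difference of 2.40 (SE 0.30, adjusted p = 2.08e-06). Its second probe set differed by 1.22 (adjusted p = 0.0028). Cfap36, a binding partner of the small GTPase Arl3, ran 11.26, 12.30 and 13.22 against 10.66, 10.89 and 11.30, a difference of 1.46 (SE 0.26, adjusted p = 0.00018), and its second probe set gave 1.37 (adjusted p = 0.000388). Cfap300, known as a factor for dynein arm assembly, ran 12.01, 12.26 and 12.43 against 10.32, 10.92 and 11.14 without overlap, a difference of 1.42 (SE 0.20, adjusted p = 7.63e-06). Its direction was opposite to that of the called dynein chains. Cfap418, whose human counterpart is linked to retinal degeneration, ran 10.76, 11.09 and 11.33 against 9.48, 10.26 and 10.54, a difference of 0.87 (SE 0.18, adjusted p = 0.000657). Cfap20, a doublet protein, was higher by 0.41 (SE 0.15, adjusted p = 0.0481), and its call ended without any of 9 male arrays (all but olfactory 2 and 10 and respiratory 7), with an adjusted p of up to 0.124. With each rat as a fixed block its adjusted p was 0.0822. Among the Cfap genes not called with all arrays, Cfap299 and Cfap410 were called higher without both samples that stand apart, with differences of 0.95 and 0.92. Under the block Cfap20dc and Cfap410 were called higher, by 1.0 and 0.63, and Cfap107 and Cfap298 lower, with differences of -0.81 and -0.49.

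None of the 6 Spag genes was called by limma in males, and 1, Spag5, had an unadjusted p under 0.05. Spag5, known as a mitotic spindle protein, had a difference of -0.86 (SE 0.33, adjusted p = 0.062) and was lower in 7 of 7 rats with both tissues. Spag9, a scaffold protein of kinase signalling, had 9.82 in male respiratory sample 7, against 11.43 to 11.67 in the other 5, and 9.95 to 11.60 in male olfactory arrays. It was called lower without both samples that stand apart, with a difference of -0.80 (SE 0.23, adjusted p = 0.0119). Spag16, an axonemal central apparatus protein, was above background on 2 of 6 arrays in each male group, so its difference of 0.12 (SE 0.40) says little. Of its 2 probe sets the dimmer one was lower, with a difference of -1.23 (adjusted p = 0.0094), and was above background on 6 of 20 arrays.

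Intraflagellar transport genes had a median difference close to 0, with single genes on both sides. Of 17 genes 1 was called higher and 1 lower (5.88% each, beside 14% and 17.8% of all named genes). The median was 0.03 within a range of -0.69 to 1.06. Leaving out single arrays moved this median between -0.07 and 0.07, so it has no settled sign. Ift43, a subunit of the retrograde complex A, ran 11.09, 11.66 and 12.27 in male olfactory and 10.08, 10.61 and 11.22 in male respiratory arrays, a difference of 1.06 (SE 0.22, adjusted p = 0.000846), and was higher in 7 of 7 rats with both tissues. Ift140, a core subunit of the same complex, lay the other way, at 8.92, 9.67 and 9.78 against 9.58, 10.30 and 10.57, a difference of -0.69 (SE 0.24, adjusted p = 0.0397). The Ift140 call ended without any of 7 male arrays (olfactory 3, 4 and 10 and respiratory 1, 2, 4 and 7), with an adjusted p of up to 0.0973. Ift88, a complex B subunit needed for cilia of both kinds, ran 7.59, 9.04 and 9.80 against 8.07, 9.33 and 9.40, and its difference of -0.20 (SE 0.42) was smaller than the spread within each group. For Ift122, Ift22, Ift25, Ift46 and Ift81 different probe sets of 1 gene gave differences of both signs, none of them called. With each rat as a fixed block Ift25 was called lower, with a difference of -0.75 (adjusted p = 0.0421).

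Bbs genes leaned the other way from the dynein chains. Of 7 genes 3 (42.9%) were called higher in male olfactory epithelium and none lower, beside 14% of all named genes higher. Their median was 0.66, and 6 of the 7 had a difference above 0. Without male respiratory sample 7 the median was 0.38. Bbs9, a BBSome subunit, ran 8.38, 10.15 and 10.32 in olfactory and 8.31, 8.49 and 8.85 in respiratory arrays, a difference of 1.17 (SE 0.30, adjusted p = 0.00466). The overlap came from male olfactory sample 10 at 8.38. Bbs5, a BBSome subunit that binds membrane lipids, ran 10.16, 10.78 and 11.75 against 9.54, 10.17 and 10.43, a difference of 0.82 (SE 0.26, adjusted p = 0.0233). Its call ended without olfactory 4, olfactory 10, respiratory 7 or respiratory 8 (adjusted p up to 0.0652). Bbs1, which joins the coat to its GTPase Arl6, ran 8.36, 9.23 and 9.37 against 7.99, 8.29 and 8.63, a difference of 0.75 (SE 0.21, adjusted p = 0.00978). The mean with its dimmer second probe set was not called. Bbs2, Bbs4 and Bbs7 had differences of 0.42, 0.66 and 0.44 and Bbs12, a chaperonin-like assembly factor, -0.16, none of them called. With each rat as a fixed block Bbs4 and Bbs2 were called higher too, by 1.04 and 0.51 (adjusted p = 0.00493 and 0.0405).

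Complete separation of the 6 and 6 male arrays was found in 8 of the 54 motility genes with lower and 5 of the 54 with higher olfactory signal. It was found in 0 of the 24 transport genes. Of 31042 probe sets 2231 (7.19%) were separated with lower and 1916 (6.17%) with higher olfactory signal. Taken over all 78 members, the share separated with higher signal (5 genes) was thus near that background. The 8 lower ones were Dnah1, Dnah2, Dnah7, Tekt4, Drc3, Cfap161, Cfap45 and Cfap77, and the 5 higher ones Tekt2, Cfap20, Cfap300, Cfap418 and Cfap69. Every transport gene called in males, Ift43 and the Bbs genes included, therefore overlapped between the tissues on at least 1 array.

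Class levels on single arrays are averages of the same gene values, so they restate this divide array by array and add no further support. For each class the mean deviation of its genes from their own 20-array means was taken. The dynein chains lay at -1.26 to -0.27 in male olfactory and -0.78 and -0.60 in female olfactory arrays. They lay at -0.07 to 0.93 in male and -0.07 to 1.01 in female respiratory arrays, so all 8 olfactory arrays fell below all 12 respiratory arrays. The lowest respiratory values, both -0.07, came from the samples that stand apart, male respiratory 7 and female respiratory 8, followed by male respiratory 8 at 0.06. Intraflagellar transport genes overlapped, at -0.27 to 0.24 in male olfactory and -0.31 to 0.19 in male respiratory arrays. Bbs genes lay at -0.12 to 0.68 in male olfactory and -0.88 to 0.12 in male respiratory arrays, where the lowest value was again respiratory sample 7.

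**Figure D3:**
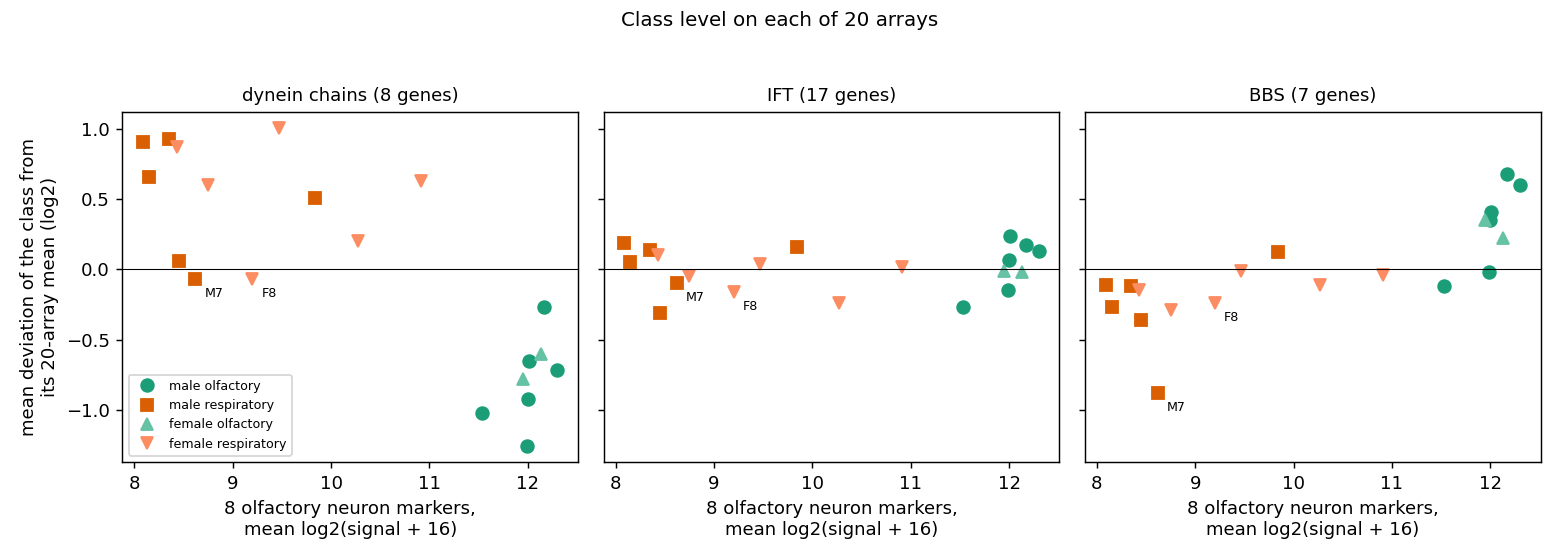
Mean deviation of the dynein chains (8 genes), intraflagellar transport genes (17) and Bbs genes (7) from their 20-array means on each array, against the mean log2(signal + 16) of 8 olfactory neuron markers on that array, with male respiratory 7 (M7) and female respiratory 8 (F8) marked. All olfactory arrays lie below all respiratory arrays for the dynein chains, from -1.26 to -0.27 against -0.07 to 1.01, and the tissues overlap for both transport classes.

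Respiratory arrays differed among themselves in olfactory neuron signal. Male respiratory sample 1 had a marker mean of 9.84, against 8.09 to 8.62 in the other 5 male respiratory samples, and its dynein chain level was 0.51. Female respiratory sample 7 had the highest marker mean of that tissue, 10.91, and a dynein chain level of 0.63, within the range of the others. In these samples olfactory neuron signal and dynein chain signal were thus both present, and the share of cells behind each was not measured.

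Other genes of motile ciliated cells, a list of 29 measured genes outside the members, were called lower in male olfactory epithelium in 9 cases and higher in 4, with a median of -0.48. These were 31% and 13.8% of the list, beside 17.8% and 14% of all named genes, so the higher calls were near the background. Deup1, which builds the deuterosomes that multiply centrioles, had a difference of -3.06 (SE 0.44, adjusted p = 1.26e-05). Gmnc, a coiled-coil regulator that acts early in the making of multiciliated cells, had a difference of -2.21 (SE 0.23, adjusted p = 1.6e-07). Myb and Ccno, which also act in that process, differed by -1.90 and -1.94, and Ak7, Ccdc113, Lrrc23, Pierce1 and Ropn1l by -1.75 to -0.66. Foxj1, the fork-head factor of motile cilia, had a mean of 10.59 ± 0.57 (SD, n = 6) in male olfactory and 11.13 ± 0.51 (SD, n = 6) in male respiratory arrays, a difference of -0.54 (SE 0.25, adjusted p = 0.127) that was not called. The 4 higher genes were Rfx3, a factor of the RFX family, at 1.11, Mlf1 at 1.11, Cby1, which acts at the ciliary base, at 1.00 and Nme7 at 0.60. In females 3 of the 29 were called lower (Deup1 at -3.27, Gmnc at -1.74 and Ak7 at -1.47) and 2 higher (Mlf1 and Cby1), with a median of -0.04. These were 10.3% and 6.9% of the list, no more than the 11.6% and 10.9% of all named genes in females. Myb at -0.94 (adjusted p = 0.107), Ccno at 0.20 (adjusted p = 0.903) and Foxj1 at 0.08 (adjusted p = 0.911) were not called there.

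Other transport and ciliary gate genes, a list of 35 measured genes, were called higher in 8 cases and lower in none, with a median of 0.39 and 14 unadjusted p under 0.05. The higher calls were 22.9% of the list, beside 14% of all named genes called higher and 17.8% called lower in males. Arl3, the GTPase that releases lipid-bearing cargo in cilia and binds Cfap36, was higher by 1.81 (SE 0.25, adjusted p = 6.63e-06). Unc119, a carrier of such cargo, was higher by 1.47 (SE 0.28, adjusted p = 0.000386). Dync2i2, an intermediate chain of the dynein that drives retrograde transport, was higher by 1.14, and Cep290, a gate protein, by 1.17. Arl6, the GTPase that recruits the BBSome, was higher by 0.78, and Kifap3, Inpp5e and Ahi1 by 0.57 to 0.72. In females 5 of the 35 (14.3%) were called higher (Arl3, Unc119, Dync2i2, Inpp5e and Tctn3) and none lower, with a median of 0.47. Of all named genes 10.9% were higher and 11.6% lower in females.

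Females gave the same contrast in other rats, with only 2 olfactory arrays. Of the 78 genes 10 (12.8%) were lower and 9 (11.5%) higher in female olfactory epithelium, where 10.3% of all probe sets were lower and 7.64% higher. Of all named genes 11.6% were lower and 10.9% higher, so the members as a whole were near that background. All 10 lower ones and 8 of the 9 higher ones were motility genes, which make up 54 of the 78, and the transport gene was Ift43. That is 18.5% of the motility genes lower and 14.8% higher, and 4.17% of the transport genes higher. Of the 30 genes called in males all 30 had the same direction in females and 14 were called there too. Over the 78 genes 66 had the same direction, and the male and female differences had a Pearson r of 0.891, given as a description across genes that share arrays. The female counts turned on single arrays. They were 18 lower without female respiratory sample 8, where 14.5% of all probe sets were lower. Without both samples that stand apart they were 19 lower and 16 higher, beside 16.9% and 10.5% of all probe sets. Without female olfactory sample 6 they were 3 lower and 1 higher (3.34% and 3.03% of all), and without female olfactory sample 8 they were 6 lower and 4 higher (5.79% and 3.85%). With RNA integrity in the model they were 0 lower and 2 higher, beside 1.78% and 1.87% of all probe sets, where no female olfactory number (8.3 in both) reached the respiratory ones (8.7 to 9.3).

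**Figure D4:**
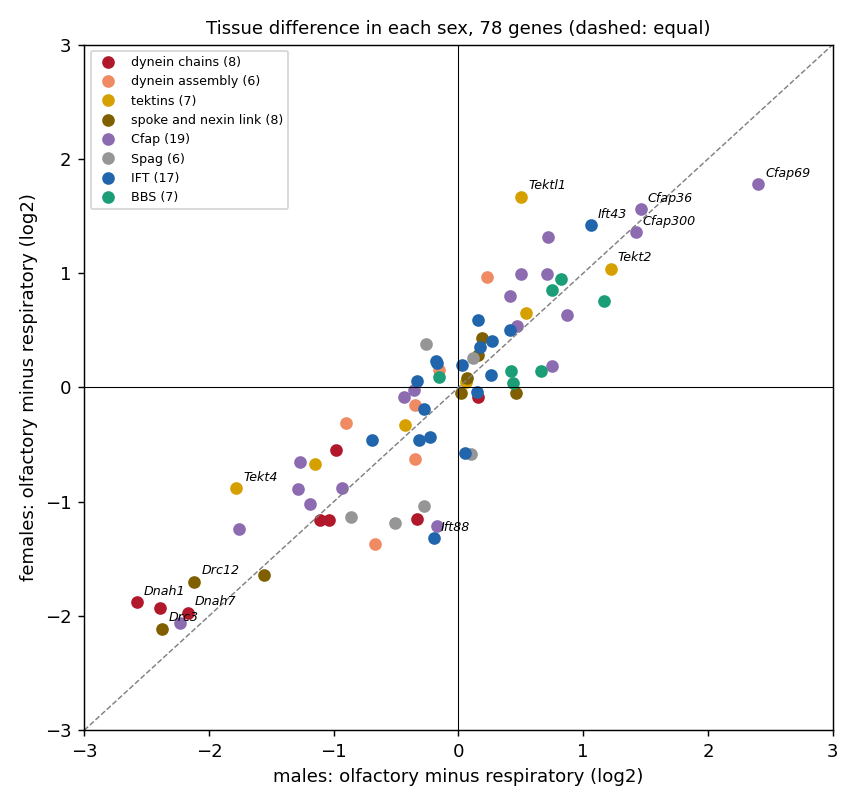
Difference between olfactory and respiratory epithelium (log2) in females against that in males, 1 point for each of the 78 genes, coloured by class, with the line of equal difference dashed. Dnah1, Dnah7 and Drc3 lie at the lower left and Cfap69, Cfap36 and Cfap300 at the upper right, and 66 of the 78 genes have the same sign in both sexes.

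Dnah1 differed by -1.88 (SE 0.37, adjusted p = 0.0011) in females, Dnah7 by -1.97 (SE 0.40, adjusted p = 0.0013), Dnah2 by -1.93 (SE 0.49, adjusted p = 0.00792) and Drc3 by -2.11 (SE 0.36, adjusted p = 0.000281). On the higher side Cfap69 differed by 1.78 (SE 0.42, adjusted p = 0.00501), Cfap300 by 1.36 (SE 0.28, adjusted p = 0.00151) and Ift43 by 1.42 (SE 0.31, adjusted p = 0.00285). Of the 7 Bbs genes none was called by limma in females, 2 had an unadjusted p under 0.05, and all 7 had a difference above 0, from 0.04 to 0.95. Their median was 0.14 in females, smaller than the 0.66 in males. Genes called in females only were Dnaaf9 (-1.37), Spag7 (-1.04), Dnaaf5 (0.97), Cfap410 (1.32) and Tektl1 (1.67). Tektl1 was above background on both female olfactory arrays and on no female respiratory array, so that its signal was at least 1.63-fold higher there (adjusted p = 0.0167).

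Between the sexes limma called no cilium gene. In respiratory epithelium, with 6 arrays of each sex, no member had an unadjusted p under 0.05 and the differences, female minus male, ran from -0.59 to 0.55, where 0.0258% of all probe sets were called. In olfactory epithelium, with 2 female arrays, 5 members had an unadjusted p under 0.05, the differences ran from -1.06 (Ift88) to 1.18 (Tektl1), and 0.0419% of all probe sets were called. The difference of the tissue differences between the sexes was called for none of the 78 (0% of all probe sets), with 1 unadjusted p under 0.05. For Dnah1 it was 0.70 (SE 0.45) and for Tekt4 0.90 (SE 0.39), sizes that 2 female olfactory arrays leave wide.

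Several limits of measurement remain for these genes. Of the 18 members with several probe sets, 9 had probe sets that differed in sign in males, and none had probe sets called in both directions. Levels of different probe sets cannot be set against each other on this array, so only differences between tissues are compared here. Spermatid genes, which would mark a testis-like background for the sperm-related members, had a mean log2(signal + 16) of 4.86 to 5.31 in male olfactory and 4.99 to 5.65 in male respiratory arrays, below the background level on these arrays of 5.46 to 6.23 and 5.67 to 6.22. That mean is over 6 genes: Tnp1, Tnp2 and Akap4 were above background on no array, Prm1 and Odf1 on 6 of 20 each and Prm2 on 10. Prm1 was called lower in male olfactory epithelium, with a difference of -1.22 (adjusted p = 0.00809) between means of 4.94 and 6.16, and Tnp1 was called in females while below background.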

How the data were processed

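Total RNA of 20 nasal epithelium samples was hybridised as biotin-labelled copies to Affymetrix rat arrays, 1 per sample, per the labels' protocols. The authors deposited 1 intensity for each probe set. GCOS 1.0, the array maker's software, is named in the submitters' processing notes, while the signal algorithm or scaling target is not given in the sources used here. After trimming 2% at each end the mean of each array was 500.1 to 500.3, so the values were taken as scaled to a common level and were not scaled again.

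From these values log2(signal + 16) was computed. Of 31099 probe sets 57 controls were left out. A model with 4 group means was fitted to the 20 arrays with limma 3.58.1 (R 4.3.3), with variances that follow intensity, and p-values were adjusted over 31042 probe sets, with calls under 0.05. SE is the standard error of that fit, and folds are 2 to the power of the difference on this scale, which understates changes of dim genes. The number of arrays limits the precision, and the script was tested on simulated data. The platform annotation gave 1 symbol for 20826 probe sets, updated by Entrez identifier; 2 probe sets with several symbols that fit the rule were left out.

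In each class the up to 4 called genes with the largest difference in each direction are given with their values. Members and lists were chosen with earlier results of these data known, so lists are described by counts and medians without a test. The pairing of samples comes from the animal numbers in the labels: the deviations of both arrays of a rat from their group means correlated by -0.184 to 0.246 in 7 rats, with a consensus of 0.039. Promoter windows come from RefSeq tables of build GRCr8, the first listed for each gene.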

Additional observations from a re-analysis of the deposited data

Results flagged for a closer look

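Within groups of 6 arrays, 37 of 234 sets of values held a sample whose gap to its nearest neighbour was wide against the range of the group (Dixon's criterion). Chance alone flags about 1 in 20 such groups. Of the 37, 13 came from female respiratory sample 8 and 11 from male respiratory sample 7, the respiratory samples that stand apart on the second principal component. All values are log2(signal + 16).

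In female respiratory sample 8 the transport genes Ift25, Ift20, Ift74 and Bbs5 were high, at 13.09, 12.75, 12.19 and 11.36, as were Cfap144 at 14.44, Cfap299 at 12.18 and Cfap276 at 10.36. In the same sample Ift52 was low at 9.45, Ift172 at 9.09, Ift122 at 8.11 and Ift88 at 7.08, and so were Spag7 at 9.00 and Dnaaf5 at 8.62. Intraflagellar transport genes thus lay in opposite directions within this sample.

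In male respiratory sample 7 the low genes were Ift52 at 10.00, Drc12 at 9.95, Spag9 at 9.82, Cfap418 at 9.48, Dnai7 at 8.81, Cfap97 at 8.18, Ift88 at 8.07, Bbs7 at 7.91, Bbs4 at 6.85 and Cfap100 at 4.71, and Ift27 was high at 10.98. Ift52 and Ift88 were low in both of the samples that stand apart.

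In male olfactory sample 10 Ift52 was low at 9.50, Ift46 at 9.30, Dnaaf8 at 7.50, Dnal1 at 7.24 and Rsph3 at 6.40. In male respiratory sample 8 Ift46 was low at 10.12, Dnali1 at 9.80 and Cfap45 at 9.29. In male olfactory sample 4 Cfap20 was high at 12.20 and Tekt3 at 8.42. The remaining values were Dnah7 at 5.71 in male olfactory sample 7, Cfap90 at 6.99 in male respiratory sample 2, both low, and Tektl1 at 5.79 in female respiratory sample 3, high.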

How the results depend on the processing

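Of 452 counts and medians recomputed under the alternatives 29 moved past the tolerance, which was 1.5 times for a count and, for a class median, 1 SD of that median between arrays of a group (0.34 for the Bbs genes, 0.20 for all motility genes). Within it some medians still moved by over 1.5 times, as that of the Bbs genes from 0.66 to 0.38 without male respiratory sample 7. Of the values of single genes, 2023 in all, none reversed, 69 were no longer called and 42 became called. The cause was not tested for any of them. With the RNA integrity covariate motility calls in males were 6 lower and 3 higher, transport calls 0 and 0, female calls 0 lower and 2 higher, and the medians of tektins and Cfap genes -0.24 and -0.04. On the same arrays without that covariate transport genes were lower in 0 cases, as without the variance trend. A fixed replicate block for each rat, in males that gave both tissues, and the rats aged 11 weeks alone each gave 2 transport genes lower. Under that block the calls of Tekt3 and Cfap20 ended and 8 others came up. The block changed no other count past 1.5 times, and as a random replicate block it left 18 motility genes lower and 7 higher. In the rats aged 11 weeks the medians of motility and Spag genes were -0.08 and -0.03, and with 1 added in place of 16 that of the dynein chains was -1.55. Leaving out single arrays gave 0 to 1 transport genes lower in males, and 3 to 18 lower and 1 to 13 higher genes in females. Without both samples that stand apart, an alternative chosen after seeing the data like the fit on the arrays with an integrity number, female calls were 19 lower and 16 higher. Quantile normalization moved the female median of all probe sets from -0.112 to 0.025. Signal over background limits the 5 genes near background.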
